A study of Mus musculus with 4 samples.

Results

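The cKO-only peaks are the m6A peaks that were called in macrophages lacking Mettl3 and that overlapped no peak called in control macrophages. A peak of the cKO list counted as cKO-only when it shared no base with any peak of the WT list on the same chromosome and strand. Of 38697 cKO peaks, 11118 met this rule, which is 28.7% (exact 95% interval 28.3 to 29.2). They lay in 6731 genes. Both lists together held 75204 peaks. The members were chosen by the authors' peak calls, that is by the start and end positions listed for the cKO and the WT library pairs, so positions and enrichments of cKO-only peaks are given as descriptions, without tests.

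The cells were bone-marrow-derived macrophages of C57BL/6 mice, grown with the growth factor M-CSF for 7 days and then cultured for 24 h with MC38, a mouse colon carcinoma line. The cKO cells carried loxP-flanked Mettl3 alleles together with Cre under control of the lysozyme M promoter (LyzM-cre, Mettl3fl/fl), and the WT cells carried the same floxed alleles (Mettl3fl/fl) without Cre. This Cre acts in myeloid cells, and the labels give neither the deletion efficiency nor the age or number of mice, nor do they say how many MC38 cells remained in the harvest. Each genotype had 1 library of RNA fragments captured by an antibody to m6A (IP) and 1 of fragments taken before capture (input), so every difference below is between single libraries and has no replicate check. The depth behind each value is unknown, because read totals were not used here, and intervals cover counting error over peaks or genes only.

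N6-methyladenosine is written into messenger RNA by a complex in which Mettl3 is the catalytic subunit and Mettl14 its partner. The complex prefers adenosines in short motifs with the core GGAC, in particular GGACT, and the mark is known to be dense near stop codons and in 3' UTRs. Reader proteins such as the Ythdf family bind the mark and influence the decay and translation of the transcript. In macrophages the mark is known to bear on inflammatory signalling.

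The sequences below come from cKO-only peaks at which the values described later are extreme. Each shows the GGACT nearest the centre of the peak, or the nearest GGAC where no GGACT could be shown. Usp2, Fosb, Csgalnact1 and Dio3 are among the 10 strongest cKO-only peaks of genes without a WT peak, Zgrf1 is among the 10 strongest of genes with other WT peaks, and Loxl2 and Lrrc49 have cKO minus WT differences among the 10 largest of the authors' deposited table, all ranked after genes known only by model numbers or clone names were left out. The sites shown were chosen from peaks that held such a motif. In the same rankings, none was found in the peaks of Begain, Alas1, Clcn2, Mboat2, Hhex and Dennd5b, among others. Each sequence is read 5' to 3' along the transcript from GENCODE M21, on mm10. Only the motif chosen in this way, GGACT or GGAC, is in capitals, and a further GGAC in the Lrrc49 sequence is in lower case. The sites lie at chr9:44075876-44075904 on the plus strand in Usp2, chr7:19309643-19309671 on the minus strand in Fosb, chr8:68461412-68461440 on the minus strand in Csgalnact1, chr12:110280392-110280420 on the plus strand in Dio3, chr3:127562883-127562911 on the plus strand in Zgrf1, chr14:69660760-69660788 on the plus strand in Loxl2 and chr9:60610316-60610344 on the minus strand in Lrrc49.
Usp2: cagatggctaccGGACTtcagatggctac
Fosb: ccgacagagcctGGACTttcaggaggtac
Csgalnact1: caggagcagttgGGACTgccacgggccaa
Dio3: agtttacctgctGGACTttctgacaccag
Zgrf1: tccctgctgatgGGACTctgttgtcagag
Loxl2: gcaacaaacactGGACagccaagaattcc
Lrrc49: tcaggacagaaaGGACTcggagtctccgc

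Of the named peaks placed on a transcript, 53 were searched for the motif over their whole exonic part, which differs in length between peaks. Of these, 31 held GGAC, and in 11 the motif nearest the centre was GGACT. A motif is a match of letters and not a measured methylated base.

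The cKO-only peaks fell into 2 unequal groups by gene. In genes that had other peaks in the WT list lay 9950 of them (89.5%, 88.9 to 90.1), over 5791 genes. In genes with no WT peak at all lay 1136 (10.2%, 9.66 to 10.8), over 940 genes. The remaining 32 (0.288%) had no gene in the authors' annotation. Genes with at least 1 cKO-only peak made up 48.1% of the 13993 genes with a cKO peak, and genes with a cKO-only peak and no WT peak made up 6.72%. WT-only peaks, found by the same rule turned round, numbered 9798 of 36507 WT peaks (26.8%, 26.4 to 27.3).

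Most genes without a WT peak had a single cKO-only peak, at 84.9% (82.4 to 87.1) of the 940. Among genes with other WT peaks, 57.8% (56.5 to 59.0) had a single one. In 310 (5.35%) of the genes with other WT peaks, every cKO peak was cKO-only, so that both lists held peaks in the gene but at positions that did not overlap. WT-only peaks were present in 3242 of the 5791 genes with cKO-only and other WT peaks (56.0%, 54.7 to 57.3). They were present in 2200 of 7231 genes (30.4%, 29.4 to 31.5) that had peaks in both lists and no cKO-only peak.

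The share of peaks that were cKO-only was higher in genes with more peaks. It was 21.1% in genes with 1 cKO peak, 23.5% with 2, 26.6% with 3, 31.4% with 4 to 6 and 35.5% with 7 or more. Absence of any WT peak ran the other way, from 17.4% of genes with 1 cKO peak through 3.23% with 2 and 1.20% with 3 to 0.437% with 4 to 6. None of the 801 genes with 7 or more cKO peaks lacked a WT peak.

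A smaller share of cKO-only peaks than of cKO peaks shared with WT lay in 3' UTRs, and a larger share in other exonic sequence and in introns. Region names are the authors' annotation, in which exonic is set apart from the UTRs and from exons of noncoding RNAs. The 3' UTR held 39.1% (38.2 to 40.0) of cKO-only peaks and 62.4% (61.8 to 62.9) of shared peaks. Other exonic sequence held 31.8% (30.9 to 32.6) of cKO-only peaks and 19% (18.5 to 19.4) of shared peaks. Introns held 10.9% (10.3 to 11.5) and 2.84% (2.64 to 3.04), 5' UTRs 9.62% (9.07 to 10.2) and 8.88% (8.55 to 9.23), and exons of noncoding RNAs 8.27% (7.77 to 8.80) and 6.67% (6.38 to 6.97). WT-only peaks had nearby shares, with 37.7% in 3' UTRs, 34.9% in other exonic sequence, 9.51% in introns, 9.47% in 5' UTRs and 8.09% in noncoding exons.

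Seen by region, 60.7% (58.6 to 62.9) of intronic cKO peaks were cKO-only, against 28.7% of all cKO peaks. The share was 40.3% (39.2 to 41.3) in other exonic sequence, 33.3% (31.6 to 35.1) in noncoding exons, 30.4% (28.9 to 31.9) in 5' UTRs and 20.2% (19.7 to 20.7) in 3' UTRs.

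The gene classes differed in their regions. Exons of noncoding RNAs held 47.3% (44.3 to 50.2) of the peaks in genes without a WT peak and 3.85% (3.48 to 4.25) of those in genes with other WT peaks. Introns held 1.23% (0.675 to 2.06) and 12% (11.4 to 12.7). Of the 940 genes without a WT peak, 47.6% were protein coding, 29.8% long noncoding RNA genes and 20.4% pseudogenes in GENCODE M21, against 85.7%, 9.66% and 4.14% of all genes with a cKO peak. Among peaks of protein-coding genes alone, the 3' UTR held 58.6% (54.6 to 62.6) in genes without a WT peak, 41.7% (40.7 to 42.7) in genes with other WT peaks and 66.8% (66.3 to 67.4) of shared peaks.

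**Figure D1:**
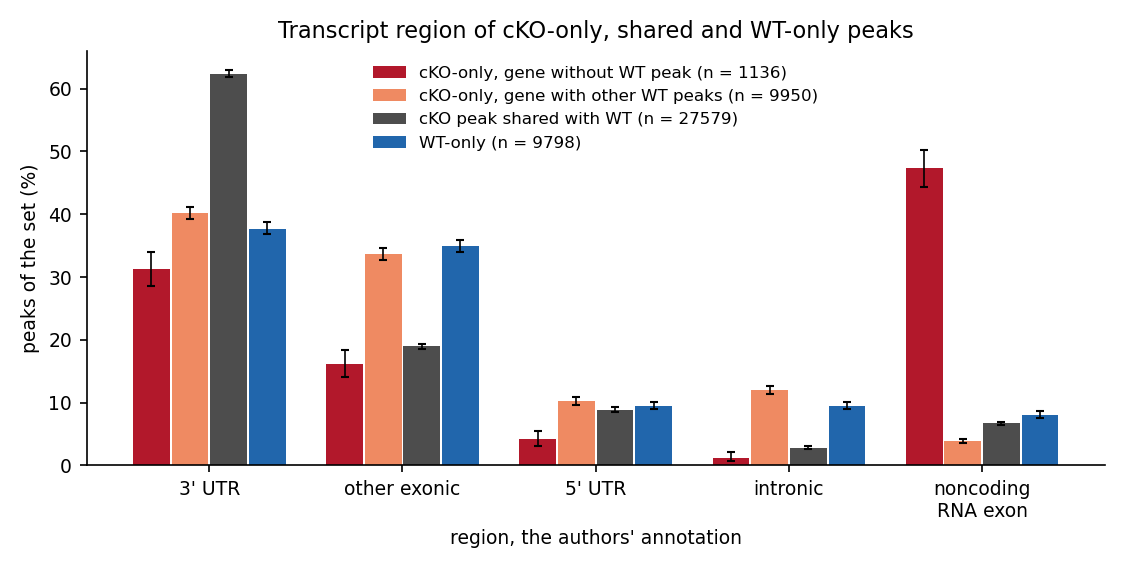
Share of peaks in each transcript region (y axis, percent of the set), by the authors' annotation, for cKO-only peaks in genes without a WT peak, cKO-only peaks in genes with other WT peaks, cKO peaks shared with WT, and WT-only peaks. Bars are shares and error bars are exact 95% intervals; the noncoding RNA exon bar reaches 47.3% for genes without a WT peak, and the 3' UTR bar reaches 62.4% for shared peaks.

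Along protein-coding transcripts, cKO-only peaks of genes with other WT peaks seldom held the end of the coding sequence, whereas those of genes without a WT peak held it about as often as shared peaks did. Peaks were placed on the authors' transcript for each, and 9838 of the 11118 cKO-only peaks (88.5%) could be placed. The last coding base lay in 116 of 580 cKO-only peaks of genes without a WT peak (20.0%, 16.8 to 23.5) and in 269 of 8209 of genes with other WT peaks (3.28%, 2.90 to 3.69). It lay in 23.4% (22.9 to 23.9) of shared peaks and in 4.54% (4.09 to 5.02) of WT-only peaks. Shared peaks were longer, with a median exonic length of 375 bases, against 225 in genes without a WT peak and 175 in genes with other WT peaks, and the part of length in these shares was not tested. By the rule, no cKO-only peak can hold an end of the coding sequence that lies under a WT peak. This limit acts in genes with other WT peaks and hardly in genes without one. Its part in the difference between the classes was not tested.

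Peak centres gave the same order of the cKO-only classes, and the limit set by the rule applies to them too. The centre of the exonic part of the peak lay within 200 bases of that end in 26.7% (23.2 to 30.5) of the cKO-only peaks of genes without a WT peak, in 8.69% (8.09 to 9.32) of those of genes with other WT peaks, in 10.1% (9.43 to 10.8) of WT-only peaks and in 18.2% (17.7 to 18.7) of shared peaks. Counted from that end, the median position of the centre was 50 bases in genes without a WT peak and -175 bases in genes with other WT peaks, where a negative position lies in the coding sequence or before it. It was -261 bases for WT-only peaks and 180 bases for shared peaks.

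**Figure D2:**
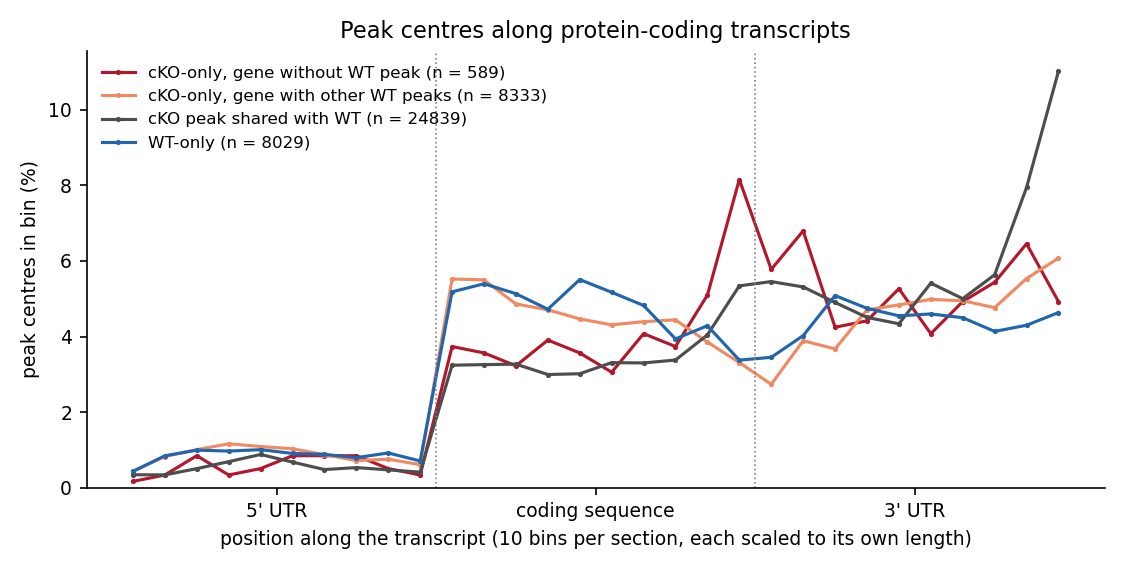
Peak centres along protein-coding transcripts (x axis, 10 bins each for 5' UTR, coding sequence and 3' UTR, each section scaled to its own length; y axis, percent of the centres in each bin), with 1 line per set of peaks. The line of cKO-only peaks in genes without a WT peak is highest in the last coding bin, the lines of cKO-only peaks in genes with other WT peaks and of WT-only peaks are low there, and the line of shared peaks is highest in the last bin of the 3' UTR.

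The cKO-only peaks were shorter than shared peaks and as short as WT-only peaks. Their median span between outer ends was 325 bp (quartiles 150 and 1317.5), against 325 bp (150 and 1381) for WT-only peaks and 725 bp for shared peaks. Spans include introns between the ends, and 10.7% of cKO-only peaks and 18.3% of shared peaks spanned over 5000 bp. The smallest span in the lists, 100 bp, was that of 11.3% of cKO-only peaks, 12.4% of WT-only peaks and 2.67% of shared peaks. The median exonic length was 175 bases in cKO-only and in WT-only peaks. In exonic sequence outside the UTRs, the exon under the centre of a cKO-only peak had a median length of 150 bases, against 202 for shared peaks. In 3' UTRs it had a median length of 2279 bases, against 1546 for shared peaks.

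The cKO-only peaks were less enriched than the shared peaks as a whole, and those in genes without a WT peak were more enriched. The authors' value per peak is the log2 of IP over input in the cKO pair of libraries. Its median was 0.99 (quartiles 0.77 and 1.46, range 0.33 to 9.46) over cKO-only peaks, against 1.41 (0.99 and 1.94) over shared peaks. It was 1.69 (1.21 and 2.45) in genes without a WT peak and 0.95 (0.75 and 1.34) in genes with other WT peaks. The median adjusted p of the authors was 0.00431 over cKO-only peaks and 1.31e-10 over shared peaks, and 224 cKO-only peaks had an adjusted p of 0.05 or more. Longer peaks had higher values in both sets. At an exonic length over 400 bases, the median was 1.27 in 768 cKO-only peaks and 1.67 in 12142 shared peaks. At an exonic length of at most 100 bases it was 0.88 in 2267 cKO-only peaks and 0.97 in 2125 shared peaks.

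Very high values made up a larger share of the peaks in genes without a WT peak. A log2 of 5 or more was given to 101 cKO-only peaks (0.908%), of which 55 were in genes without a WT peak (4.84% of those) and 44 in genes with other WT peaks (0.442%). The WT-only peaks held 130 such values (1.33%), and the shared peaks 176 (0.638%). Split in the same way, WT-only peaks showed the same order, with a median of 1.86 over 924 peaks in 784 genes without a cKO peak and of 0.90 over 8855 peaks in genes with other cKO peaks. Noncoding exons held 46.3% (43.1 to 49.6) of the WT-only peaks in genes without a cKO peak, and 19.8% (16.3 to 23.6) of the 486 that lay on coding transcripts held the end of the coding sequence. Among cKO-only peaks of genes without a WT peak, 3.52% reached a log2 of 5.9 and the same share reached 6.9. Read counts per peak were not used, so whether such high values rest on few input reads was not tested.

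**Figure D3:**
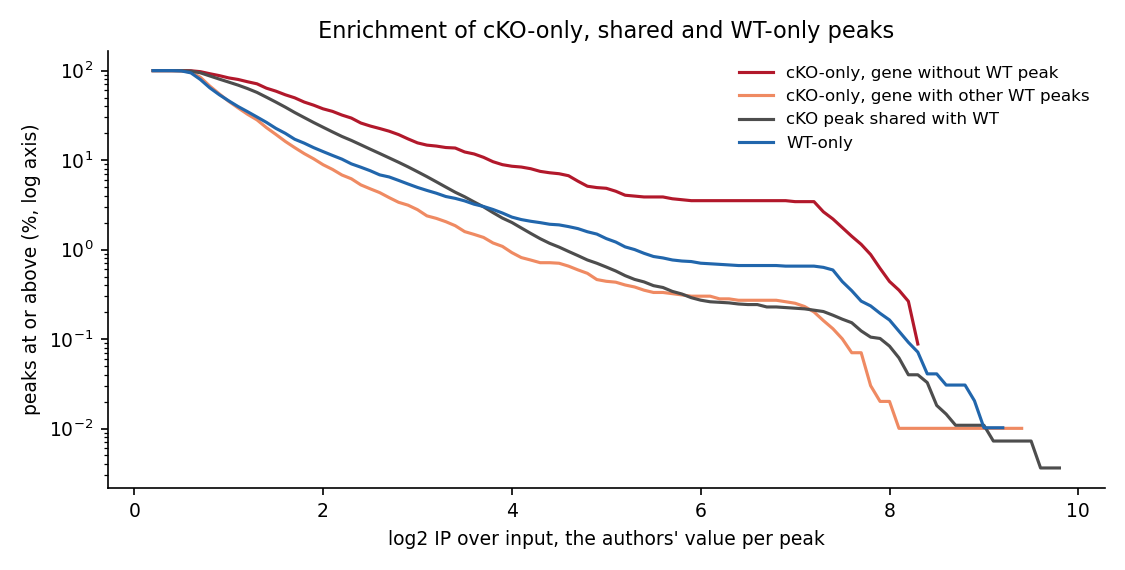
Share of peaks (y axis, percent, log axis) with a log2 IP over input at or above the value on the x axis, for cKO-only peaks in genes without a WT peak, cKO-only peaks in genes with other WT peaks, cKO peaks shared with WT, and WT-only peaks. At a log2 of 5, 4.84% of the peaks in genes without a WT peak remain, against 0.442% in genes with other WT peaks and 0.638% of shared peaks.

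The 10 strongest cKO-only peaks of genes without a WT peak, at an adjusted p below 0.05, had log2 values of 7.63 to 8.32 in the cKO, and the WT list held no peak in these genes. The peak in Usp2, which encodes a deubiquitinase, had 8.32 (chr9:44075725-44076074, exonic, adjusted p of the authors 5.52e-05). Begain, a gene of a synaptic protein, had 8.16 (chr12:109033262-109033411, exonic). Irx2 and Nova1, which encode a homeobox transcription factor and a splicing regulator known from neurons, had 8.04 and 7.92, both in exonic sequence. These peaks lay far from any WT peak, at 27640 bp in Usp2 and 172407 bp in Begain.

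Fosb, a member of the AP-1 transcription factor family, had a cKO value of 7.88 in its 5' UTR (chr7:19309609-19309958). Csgalnact1, an enzyme of chondroitin sulfate synthesis, had 7.86 in exonic sequence (chr8:68461166-68461515). In 3' UTRs lay the peaks of F2rl1, a protease-activated receptor, at 7.77, Dio3, which inactivates thyroid hormone, at 7.71, Rprm, a cell cycle arrest gene, at 7.66, and Strip2 at 7.63. None of these 10 genes has an input value in the tables used here, and whether their high ratios rest on few input reads was not tested. Their adjusted p-values ran from 5.52e-05 to 0.00021, rising as the log2 fell.

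Sorted by p-value, cKO-only peaks of genes without a WT peak came mainly from ribosomal protein pseudogenes and had modest enrichment. Rpl17-ps5 had a log2 of 2.16 (adjusted p 2.6e-212), Rpl34-ps1 0.88, Rpl14-ps1 0.67, Rpl31-ps8 1.27 and Rps10-ps2 0.63. Rpl17-ps10 held 2 such peaks, at 0.69 and 0.65. Reads of these pseudogenes cannot be told apart with certainty from those of the parent genes, so their peaks are uncertain. The coding genes among the 10 lowest p-values were Pgk1, a glycolytic enzyme, at 0.90 (adjusted p 1.1e-180), Ifi27l2a, an interferon-induced gene, at 1.18, and Dstn, an actin-depolymerizing factor, at 1.23, all in 3' UTRs. Pgk1 and Dstn also have near-identical pseudogene copies.

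Prom1, a membrane glycoprotein known as a stem cell marker, had the most cKO-only peaks among genes without a WT peak, with 6 at log2 values of 0.55 to 1.84. Podxl, a sialomucin, had 5 at 0.94 to 1.55. Each of Thsd1, Cdnf, Bcat1, Dennd5b, Hgf, Slc9a8 and Ccdc136 had 4. Dennd5b, a regulator of vesicle traffic, reached 7.23, Thsd1 reached 5.88 and Cdnf, a neurotrophic factor, reached 3.16. Hgf, hepatocyte growth factor, ran from 0.61 to 0.96.

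In genes with other WT peaks, the 10 strongest cKO-only peaks had log2 values of 7.40 to 8.01 in the cKO. Alas1, the rate-limiting enzyme of haem synthesis, had 8.01 in its 5' UTR (chr9:106248381-106248654), 6849 bp from the nearest WT peak. Clcn2, a chloride channel, had 7.88 in the 5' UTR and Nlrp12, a NOD-like receptor, 7.77 in the 3' UTR. Abcb9, a lysosomal peptide transporter, had 7.74 at a position that touched a WT peak without sharing a base with it, and Pcdhga1, a protocadherin, had 7.40 at another such position. Zgrf1, a helicase, had 7.57 at 25 bp from a WT peak. Zeb1, a transcription factor of epithelial-mesenchymal transition, had 7.47, Acer3, a ceramidase, 7.45, the noncoding Uckl1os 7.59 and Galnt2l 7.56.

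The lowest p-values in this class belonged to abundant macrophage transcripts whose cKO-only peaks were weak. Lgals3, a galectin, had a log2 of 1.06 (adjusted p 4.58e-208), Spp1, which encodes osteopontin, 0.69, and Arg1, arginase, 0.64. Hspa8, a chaperone, had 1.02, H2-K1, an MHC class I chain, 0.51, Capg, an actin-capping protein, 0.73, and Ubb, ubiquitin, 0.61. Rps14, Ldha and Vim had 0.61, 0.40 and 0.41. H2-K1 and Rps14 have close paralogs or pseudogenes, as do Pcdhga1 and the histone gene H1f5, and their peaks are uncertain to that extent. The Spp1 peak lay 175 bp and the Arg1 peak 50 bp from a WT peak of the same strand.

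Among genes with other WT peaks, the most cKO-only peaks lay in genes that also had several WT peaks. Syne1, a giant nuclear envelope protein, had 13 cKO-only among 22 cKO peaks, and its 16 WT peaks included 9 that overlapped no cKO peak. Zbtb20, a zinc finger transcription factor, had 13 of 19, with 2 of 8 WT peaks WT-only. Vps13a, a lipid transfer protein, had 11 of 12, with 4 of 5 WT-only. Kcnq1ot1, a long noncoding RNA that silences its imprinted neighbours, had 10 of 13, with 2 of 4 WT-only. Cux1, Unc13a, Herc1, Nsmaf and Hace1 had 8 each.

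Many cKO-only peaks lay close to a WT peak. In genes with other WT peaks the median distance to the nearest WT peak was 875.5 bp (quartiles 225 and 4079), and 24.8% (24.0 to 25.7) lay within 200 bp and 52.3% (51.3 to 53.3) within 1000 bp. Of these peaks, 337 (3.39%) touched a WT peak end to end. In genes without a WT peak the median distance was 50522 bp, and 0.616% (0.248 to 1.27) lay within 200 bp. Of the distances in genes with other WT peaks, 58.2% were multiples of 25 bp.

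Peaks just inside and just outside the limit had the following values. The 337 cKO-only peaks that touched a WT peak had a median log2 of 0.91 and a median span of 300 bp. The 315 shared peaks with the smallest overlap found, 25 bp, had a median log2 of 0.92 and a median span of 300 bp. Within 100 bp of the limit, 1618 cKO-only peaks had a median log2 of 0.92 and a median span of 252 bp, and 2136 shared peaks with an overlap of at most 100 bp had 0.90 and 175 bp.

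**Figure D4:**
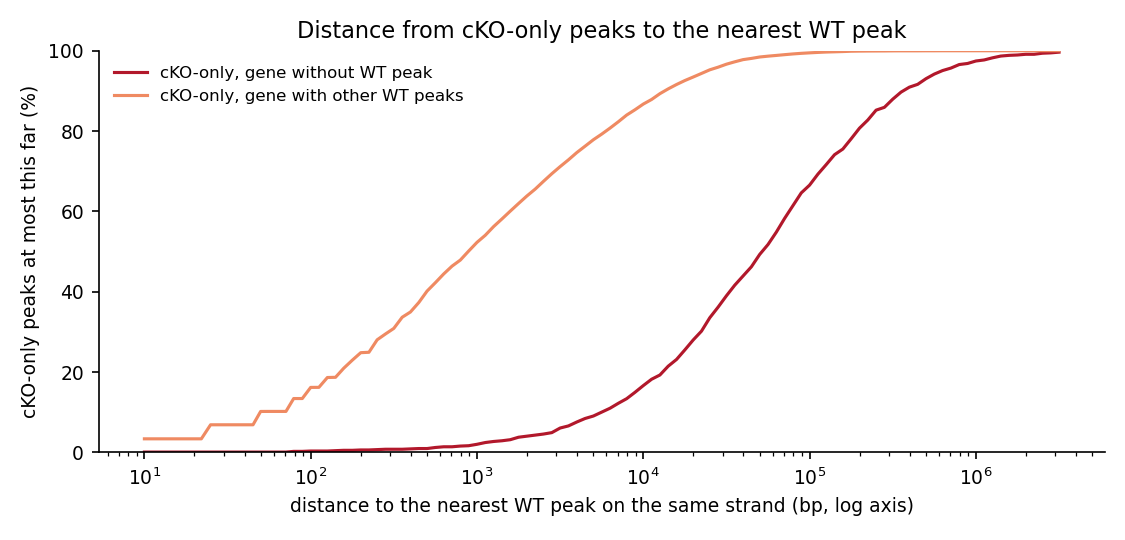
Cumulative share of cKO-only peaks (y axis, percent) by distance to the nearest WT peak on the same strand (x axis, bp, log axis), for peaks in genes without a WT peak and in genes with other WT peaks. Peaks that touch a WT peak are counted from the left edge; the medians are 50522 bp and 875.5 bp.

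The authors' deposited table of differential peaks, which lists only peaks with an unadjusted p below 0.05, covered few cKO-only peaks. Of the 11118, 1430 (12.9%, 12.2 to 13.5) overlapped a row of it, against 24.9% of all cKO peaks and 29.8% of shared peaks. A row higher in the cKO was overlapped by 1401 (12.6%), against 12.9% of all cKO peaks, and a row lower in the cKO by 29 (0.261%). At an adjusted p of the authors below 0.05, 588 cKO-only peaks (5.29%) overlapped a row higher in the cKO, against 6.51% of all cKO peaks. These rows come from the same libraries as the rule, and nothing is read from their direction.

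Where the authors' deposited table had a row at cKO-only peaks alone, the WT value was near 0. Over 1443 such rows the median log2 was 1.68 in the cKO (quartiles 1.25 and 2.19) and 0.06 in the WT (-0.45 and 0.32). Of them, 1426 were higher in the cKO, against 48.9% of all 10355 rows of the authors' deposited table, and 597 had an adjusted p below 0.05, against 53.3% of all rows. Because the rows were picked by peak calls from the same libraries, this direction is not an independent result. The same limit applies to the values of single genes from that table given below. The WT value was below 0 in 649 rows (45.0%) and 1 or more in 44 (3.05%). The 196 rows in genes without a WT peak had medians of 2.05 in the cKO and 0.12 in the WT, and 19 of these had a WT value of 1 or more although the WT list holds no peak in the gene. Rows at shared peaks alone had medians of 1.64 in the cKO and 1.45 in the WT.

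**Figure D5:**
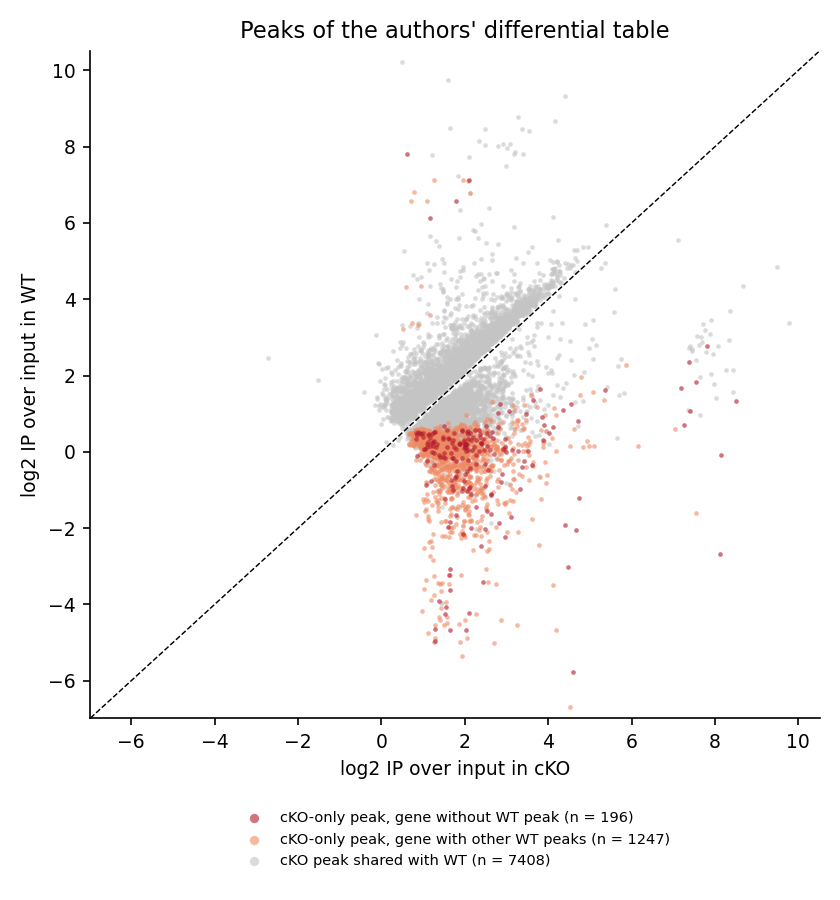
Log2 IP over input in the cKO (x axis) and in the WT (y axis) for each row of the authors' deposited table of differential peaks, for 196 rows at cKO-only peaks in genes without a WT peak, 1247 rows at cKO-only peaks in genes with other WT peaks and 7408 rows at shared peaks; the dashed line marks equal values. Rows at cKO-only peaks lie mostly below the line, at WT values around 0, and the empty band along the line is where the authors' limit on p removed rows.

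Loxl2, a collagen-crosslinking enzyme, had the largest cKO minus WT difference at a cKO-only peak in the authors' deposited table, with 4.52 in the cKO, -6.68 in the WT and a difference of 11.2 (adjusted p 1.8e-05). Its input FPKM, the authors' measure of transcript level per length, was 13.2 in the cKO and 13.0 in the WT. In that table Lrrc49 had 3.24 in the cKO and -4.55 in the WT, Mboat2, a lysophospholipid acyltransferase, 4.11 and -3.49, and Hhex, a homeobox transcription factor of blood and liver development, 1.94 and -5.34. Mus81, a DNA repair nuclease, had 1.88 and -4.98 in that table. Such rows can cover only a part of the cKO-only peak, which has its own value in the cKO list. That value was 0.86 for Mus81, 2.39 for Mboat2, 2.55 for Lrrc49, 1.7 for Hhex and 4.57 for Loxl2. Dennd5b, with 4.66 in the cKO and -2.06 in the WT, was the only gene without a WT peak among the 10 largest differences ranked in this way. Input FPKM in the authors' deposited table was low for most of these, at 0.511 in the cKO and 0.457 in the WT for Mboat2, and 0.0764 and 0.131 for Dennd5b.

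The smallest and the negative differences at cKO-only peaks in the authors' deposited table were of 2 kinds. Aatk and H1f5, a kinase and a linker histone, were lower in the cKO although the peak was called there alone, with 0.79 in the cKO and 6.81 in the WT for Aatk and 0.60 in the cKO and 4.33 in the WT for H1f5. Input FPKM was 0.879 in the cKO and 0.376 in the WT for Aatk, and 1.12 and 0.155 for H1f5. The H1f5 row (chr13:21779933-21780432) was wider than the cKO-only peak (chr13:21780008-21780132), which had 1.2 in the cKO list. The other kind were abundant transcripts with a small positive difference. In that table Malat1, a nuclear noncoding RNA, had 0.80 in the cKO and 0.57 in the WT. Lgmn, Pdia3, Os9 and Psmc1 had differences of 0.30 to 0.34 in the authors' deposited table.

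Median input levels of genes with cKO-only peaks differed little between the genotypes, although single genes differed more. FPKM values were held only for genes with a row in the differential table, which were 169 of the 940 genes without a WT peak (18%) and 3497 of the 5791 with other WT peaks (60.4%). In genes without a WT peak the median FPKM was 0.585 in the cKO and 0.557 in the WT, and 61.5% were below 1 in both libraries. The median difference in log2(FPKM + 1), cKO minus WT, was -0.03 (quartiles -0.16 and 0.09), with 73 genes higher and 96 lower, and with differences of 2-fold or more upward in 1 gene and downward in 2, where the pseudocount of 1 shrinks the change of genes of low level. With a pseudocount of 0.1, 10 of these genes differed by 2-fold or more upward and 10 downward. In genes with other WT peaks the medians were 4.14 in the cKO and 4.23 in the WT, with a median difference of -0.02. Genes with shared peaks only had 6.48 and 6.52, with a difference of -0.01, and all 7307 genes with a value had a median difference of -0.01.

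A few genes without a WT peak were abundant in both inputs. Pgk1 had an FPKM of 567 in the cKO and 491 in the WT, Dstn 93.5 and 94.0, Snx3, a sorting nexin, 61.6 and 63.2, and Gstp1, a glutathione transferase, 15.3 and 15.6. Ifi27l2a had 55.8 in the cKO and 30.4 in the WT. Of the pseudogenes, Rpl34-ps1 had 320.0 in the cKO and 176 in the WT, and Rpl17-ps5 168 and 193.

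The motif GGAC was present in a similar share of cKO-only peaks and of windows along transcripts with a cKO peak. It was searched on the transcript strand in the central 100 exonic bases of each placed peak. GGAC was present in 31.9% (31.0 to 32.9) of cKO-only peaks, 34.0% (33.4 to 34.5) of shared peaks, 32.6% (31.7 to 33.6) of WT-only peaks and 32.5% (32.4 to 32.6) of all windows of that length in transcripts with a cKO peak. The longer GGACT, whose matches are also matches of GGAC, was present in 9.33% of cKO-only peaks, 11.4% of shared peaks and 9.98% of windows. Base composition was close between sets, at 48.9% G and C in cKO-only peaks and 48.7% in shared peaks.

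The 3' UTR separated the gene classes by motif. There GGAC was present in 31.8% (27.0 to 37.0) of cKO-only peaks of genes without a WT peak and in 23.7% (22.4 to 25.0) of those of genes with other WT peaks. It was present in 31.3% (30.6 to 32.0) of shared peaks, 26.5% (25.1 to 28.0) of WT-only peaks and 25.9% (25.7 to 26.1) of 3' UTR windows. The G and C content of these 3' UTR windows was 48.6% in genes without a WT peak, 43.6% in genes with other WT peaks, 46.3% in shared peaks and 44.8% over all 3' UTR windows, and its part in the motif shares was not tested. In other exonic sequence the share was 39.3% (32.2 to 46.8) in genes without a WT peak, 38.5% (36.9 to 40.2) in genes with other WT peaks, 37.7% (36.4 to 39.0) in shared peaks and 38.4% in windows.

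The targeted gene and its partners carried cKO-only peaks. Of the 4 cKO peaks in Mettl3 (chromosome 14, 52294841 to 52305128), 2 overlapped no WT peak. One was exonic (chr14:52300078-52303677, log2 1.80, adjusted p 0.000207) and the other intronic (chr14:52304253-52304427, 1.30, adjusted p 0.0399). The WT list held a 5' UTR peak at 1.33 that overlapped no cKO peak. Peaks do not measure the deletion, and Mettl3 has no input value in the tables used here, so the genotype was not checked by level. Among the 11 listed writer genes, all with a cKO peak, 5 had a cKO-only peak (45.5%, against 48.1% of all genes with a cKO peak). By peaks, 21.1% of their 38 cKO peaks were cKO-only, against 28.7% of all cKO peaks. Genes with more cKO peaks more often had a cKO-only one, at 21.1% of genes with 1 and 94.4% with 7 or more. The 48.1% used for this and the later lists makes no allowance for peaks per gene. Mettl14 reached 3.05 in its 3' UTR, Rbm15, an adaptor of the complex, 1.43 in an intron, Wtap, its scaffold, 0.79 and Pcif1, the cap-adjacent methyltransferase, 0.93, both in 3' UTRs.

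Of 13 erasers and readers with a cKO peak, 9 had a cKO-only peak (69.2%, against 48.1% of all genes with a cKO peak), and 32% of the list's 50 cKO peaks were cKO-only, against 28.7% of all cKO peaks. Fmr1, a translational repressor that binds the mark, had a 3' UTR peak at 1.74 in the cKO list, and the authors' deposited table gave 2.21 in the cKO and -0.26 in the WT at this site (adjusted p 7.67e-05). Ythdf3, a cytoplasmic reader, had 0.95, Fto, a demethylase, 1.24, and Igf2bp2, a stabilizing reader, 0.65. Igf2bp1, a paralog of Igf2bp2, had 1.61 and no WT peak. The RNA-binding proteins Rbmx, Hnrnpc and Hnrnpa2b1 had 0.71 in exonic sequence, 0.73 in the 5' UTR and 0.91 in an intron, and the germline helicase reader Ythdc2 had 0.98 in exonic sequence.

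Of the 19 macrophage identity genes with a cKO peak, 3 had a cKO-only peak (15.8%, against 48.1% of all genes with a cKO peak), namely Msr1 and Mrc1, scavenger receptors, and Trem2, a lipid-sensing receptor. By peaks, 10.3% of the list's 39 cKO peaks were cKO-only, against 28.7% of all cKO peaks. Msr1 had 1.61 in the cKO list, and the authors' deposited table gave 1.53 in the cKO against 0.52 in the WT. Both inputs held macrophage markers, with an FPKM of 634 in the cKO and 695 in the WT for Cd68, and 162 and 220.0 for Adgre1. Lyz2 had 1980.0 and 3393. It is the lysozyme M gene whose promoter drives the Cre, and the part of the Cre allele in its level was not tested. Summed over the 17 listed genes with a value, FPKM was 3775 in the cKO and 5378 in the WT, with Lyz2 the largest part. Single genes went both ways, with 28.4 in the cKO and 73.1 in the WT for C1qa, and 15.8 and 11.1 for Fcgr1. Mrc1 had 0.87 and Trem2 1.38 in the cKO list.

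Against the same 48.1%, cytosolic ribosomal protein genes had a cKO-only peak in 5 of 28 (17.9%), antigen presentation genes in 5 of 19 (26.3%) and cytokines and chemokines in 5 of 18 (27.8%). By peaks, cKO-only ones made up 13.3% of 45, 11.9% of 42 and 20% of 30 in that order, against 28.7% of all cKO peaks. The cKO-only peaks of these genes were mostly weak in the cKO list. Tgfb1, Cxcl3 and Cxcl1, an anti-inflammatory cytokine and chemokines that draw neutrophils, had 0.88, 1.21 and 0.67, all in introns, and Il6, an inflammatory cytokine, had 0.82 in its 3' UTR at 50 bp from a WT peak. Input FPKM was 40.8 in the cKO and 44.8 in the WT for Tgfb1, and 30.0 and 64.3 for Cxcl3. It was 20.0 in the cKO and 45.8 in the WT for Cxcl1, and 3.96 and 9.15 for Il6. Cd74 and H2-Ab1, chains of MHC class II assembly, had 0.71 and 0.57 in exonic sequence, and Tap1, the peptide transporter, 0.72 in an intron. The ribosomal protein genes Rpl18, Rps3 and Rps24 had 1.33, 0.57 and 0.84, all within 150 bp of a WT peak, and the same caution on pseudogenes applies.

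Set against 48.1% of all genes with a cKO peak, a cKO-only peak was present in 22 of 33 chromatin enzymes (66.7%), 17 of 26 cell cycle genes (65.4%), 18 of 28 interferon-stimulated genes (64.3%) and 17 of 30 JAK-STAT genes (56.7%). By peaks rather than genes, 20.5% of the 215 cKO peaks in chromatin enzymes were cKO-only, 40.5% of 79 in cell cycle genes, 37.2% of 86 in interferon-stimulated genes and 28.9% of 97 in JAK-STAT genes, against 28.7% of all cKO peaks. Chromatin enzymes were thus above the overall share by genes and below it by peaks, and JAK-STAT genes were close to it by peaks.

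Interferon-stimulated genes had weak cKO-only peaks, at a median log2 of 0.78 over 32 peaks, of which 16 were exonic. Bst2, tetherin, had 0.67, Irf1 and Irf7, interferon regulatory factors, 0.72 and 0.60, and Rsad2, viperin, 0.70. Input FPKM was 21.4 in the cKO and 47.7 in the WT for Irf1, 52.9 and 42.7 for Irf7, 138 and 150.0 for Bst2, and 33.0 and 44.8 for Rsad2. Ddx58, the RNA sensor RIG-I, had 5 cKO-only of 8 cKO peaks, and Oas2 and Oas3, oligoadenylate synthetases, had 3 of 4 and 3 of 5.

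In the JAK-STAT list, the receptor-bound kinase Jak3 had 1.92 in its 3' UTR, at 25 bp from a WT peak, and the authors' deposited table gave 1.99 in the cKO and 0.48 in the WT (adjusted p 0.0351). Jak1, Jak2 and Stat6 had 0.71, 0.59 and 0.68, all exonic, at 7588, 19198 and 6526 bp from a WT peak. Of 13 ERK pathway inhibitors with a cKO peak, 5 had a cKO-only peak (38.5%, against 48.1% of all genes with a cKO peak). By peaks, 16.7% of their 36 cKO peaks were cKO-only, against 28.7% of all cKO peaks. Spred1, an inhibitor of Ras signalling, had 0.96, with 1.14 in the cKO and 0.37 in the WT in the authors' deposited table (adjusted p 0.0438), and Dusp2 and Dusp1, phosphatases of MAP kinases, had 1.96 and 0.56. Spred3 had 1.08 at a position that touched a WT peak. Toll-like receptor and NF-kB genes had a cKO-only peak in 9 of 26 (34.6%, against the same 48.1%), and 25% of their 68 cKO peaks were cKO-only. Tnfaip3, a brake on NF-kB, had 0.71, Irak3 and Irak1, kinases of Toll-like receptor signalling, 0.88 and 0.79, and Nfkb1, an NF-kB subunit, 0.60.

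Among cell cycle genes, Ccne2 and Aurka had no WT peak. Ccne2, a cyclin of the entry into S phase, had 3.93 in its 3' UTR, and the authors' deposited table gave 3.90 in the cKO and 0.70 in the WT (adjusted p 0.0306) at an input FPKM of 0.609 in the cKO and 0.588 in the WT. Cdk6, a G1 kinase, had 0.84, with 1.32 in the cKO and -0.16 in the WT in the authors' deposited table, and Mcm7, a replicative helicase subunit, 1.02, with 1.30 in the cKO and -0.01 in the WT. In the chromatin list, Arid1b, a remodelling subunit, had 2.55, with 2.46 in the cKO and 0.29 in the WT in the authors' deposited table (adjusted p 0.0336), and Chd4, Kdm6b and Dnmt1 had 0.65 to 0.70. Ccnd2, a cyclin of G1, had 1.13. Lysosomal genes had a cKO-only peak in 10 of 26 (38.5%, against 48.1% of all genes with a cKO peak), and Ctso, a cathepsin, reached 6.96 at 75 bp from a WT peak. By peaks, 19.7% of the 71 cKO peaks in lysosomal genes were cKO-only, against 28.7% of all cKO peaks. Atp6v1a, a subunit of the proton pump, Ctsa, a cathepsin, and Mcoln1, a lysosomal channel, had 0.78, 0.71 and 0.64.

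Markers of other cell types also carried cKO-only peaks, some in genes without a WT peak, and their counts stand against 48.1% of all genes with a cKO peak that had a cKO-only peak and 6.72% that also lacked a WT peak. Of the fibroblast and matrix genes with a cKO peak, 13 of 19 had one (68.4%), with Lum and Acta2 lacking a WT peak. Thbs1, Sparc and Fn1, secreted matrix proteins, had 1.0, 0.65 and 0.82, and Lox, a collagen-crosslinking enzyme, 0.73. Of epithelial and colon carcinoma genes, 3 of 6 had one, with Krt7, a keratin, at 2.73 and Cldn3, a tight junction protein, at 1.93, both without a WT peak. Krt8, another keratin, had 0.74 and other WT peaks. Of T and B cell genes, 5 of 7 had one, with Cd3d at 2.05 and Trac at 1.31 and no WT peak in either, and with Ms4a1 also lacking a WT peak. Cd79b and Ighm, B cell receptor genes, had 1.60 and 0.67 and other WT peaks. The erythroid factors Klf1, at 3.19, and Gata1, at 1.57, were both without a WT peak, and the WT list held peaks in 2 other genes of that list. S100a9, a neutrophil gene, had 2.17 and no WT peak. Dendritic cell genes had one in 5 of 7, with Irf8 at 1.17 and at 1.14 in the cKO and 0.48 in the WT in the authors' deposited table, and the neuronal Stmn2 had 1.45. Irf4, Clec9a and Ccr7 had 0.77, 1.14 and 0.72. By peaks, cKO-only ones made up 39.7% of 63 in fibroblast and matrix genes and 41.7% of 24 in dendritic cell genes. They made up 54.5% of 11 in epithelial genes and also 54.5% of 11 in T and B cell genes. In neutrophil and neuronal genes they were 33.3% of 3 and 20% of 5. The share over all cKO peaks was 28.7%.

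The summed input FPKM of marker genes with a value did not move in one direction. It was 1115 in the cKO and 754 in the WT over 14 fibroblast and matrix genes. Most of that sum came from Timp1, with 534 in the cKO and 357 in the WT, and Fn1, with 300 and 209. The sum was 10.8 and 7.05 in 1 epithelial gene and 13.7 and 12.3 in 1 neutrophil gene. It was 21.7 in the cKO and 29.5 in the WT over 2 dendritic cell genes, and 5.55 and 10.7 over 3 T and B cell genes. Whether the macrophages themselves made the transcripts of these lists was not tested. The cKO and WT lists held a peak in 3 and 3 of 10 neutrophil genes, in 7 and 5 of 14 T and B cell genes, and in 6 and 5 of 16 epithelial genes. The part of such cells in the cKO-only peaks was not tested.

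By chromosome, the share of cKO peaks that were cKO-only ran from 24.9% (chromosome 11) to 31.1% (chromosome 13) on the autosomes and was 33.6% (30.8 to 36.5) on the X chromosome. The share of WT peaks that were WT-only was 28.0% on the X chromosome. The 2 cKO peaks on the Y chromosome were cKO-only and lay in genes known only by model numbers. Neither list held a peak in the Y-linked genes Ddx3y, Kdm5d, Uty and Eif2s3y, and both held peaks in Xist, 7 in the cKO and 5 in the WT.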

How the data were processed

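Peaks of 1 IP and 1 input library per genotype were used as the authors deposited them. Per the file headers, the deposited peak lists give a log2 fold of IP over input with raw and adjusted p-values, and the authors' gene table gives FPKM of the input libraries. The submitters' processing notes name mm10 as the build and list edgeR, StringTie, ChIPseeker, HOMER, HISAT2 and fastp, without roles or versions. The sources used here do not give the peak caller or the scaling of IP to input. Every per-sample column could be mapped to its sample or group. Columns of the differential table were assigned to genotypes by their headers, and at identical positions they followed the peak lists (1444 cKO and 1619 WT positions, Pearson's r across peaks 1.00).

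Overlaps used bedtools 2.31.1 (at least 1 bp, same strand), checked on simulated intervals. Positions are 1-based. Peaks were placed on the exons of the authors' transcript in GENCODE M21, whose transcript lengths matched in all 18015 transcripts used. The deposited files give outer ends only, so exonic length is the annotated exon sequence between them, and the end of the coding sequence is its last base before the stop codon. Distances are to the nearest WT peak on the same strand. Shares have exact Clopper-Pearson intervals at 95%. Tables were handled with pandas 2.3.3 and intervals computed with scipy 1.17.1. With 1 library per group no test between genotypes was run, and p-values are the authors'.

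Named genes were, per gene class, the 10 highest log2 at adjusted p below 0.05, the 10 lowest p and the 10 with most cKO-only peaks, the 10 largest and 10 smallest differences of the authors' table, up to 4 members per list by p, the peaks nearest the overlap limit (given as medians) and every m6A writer, eraser or reader with a cKO-only peak. Symbols of Gm and a digit, ending in Rik, or mitochondrial were left out. Genes added outside this rule are Snx3 and Gstp1, Ddx58, Oas2, Oas3, Aurka, Lum, Acta2, Timp1, Ms4a1 and the macrophage and sex-linked markers, chosen after their values were seen. The members, the rule and the 20 gene lists were chosen with earlier results of these data known. Some genes that the rule names are not reported here. The motif counts over named peaks leave out chromosome 18. Alternatives are in the closing section.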

Additional observations from a re-analysis of the deposited data

How the results depend on the processing

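The number of cKO-only peaks depended most on how much overlap counts as shared. Against 11118 peaks (28.7% of cKO peaks), requiring 50% of both peaks gave 20871 (53.9%), and requiring 50% of the cKO peak gave 39.6%. Exonic blocks in place of outer spans gave 32.4%, either strand 27.4%, a WT peak within 200 bp counted as shared 22.8%, and, added after seeing the data, cKO peaks spanning 5000 bp or less 30.6%. Keeping only cKO peaks at a log2 of 1 or more gave 5487 (21.1%). Limits on the adjusted p of the cKO peaks or of both lists left the share at 28.4% and 28.6%.

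The share in genes without a WT peak (10.2%) became 17.2% at a log2 of 1 or more and 9.29% with exonic blocks. The share in 3' UTRs (39.1%) became 41.5% at a log2 of 1 or more and 46.4% with 50% of both peaks. Other exonic sequence (31.8%) gave 21.7%, 29.5% and, with exonic blocks, 30.1%. Under the same 2 settings, 5' UTRs gave 10.7% and 8.87% and noncoding exons 12.5% and 6.98%, and introns gave 13.0%, 7.92% and, with exonic blocks, 11.8%. The median log2 (0.99) became 1.06 with 50% of both peaks and 1.01 with exonic blocks. The cause of these shifts was not tested.

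The share of cKO-only peaks that hold the end of the coding sequence (4.38%), tried after seeing the data, became 11.4% with 50% of both peaks, 5.03% with exonic blocks and 6.01% at a log2 of 1 or more. In genes with other WT peaks it became 11.1% with 50% of both peaks, against 3.28%. In genes without a WT peak it was between 20.0% and 21.2% under the 9 alternatives run. Changes of the overlap rule left that class nearly the same, at 558 to 594 peaks on coding transcripts, against 580. Its share could therefore hardly change under them. Of the authors' differential peaks, 138 had start and end identical to a cKO-only peak and 595 cKO-only peaks overlapped one at adjusted p below 0.05, against 1430. The median input difference (-0.03) became -0.08 with a pseudocount of 0.1 and -0.07 at a mean FPKM of 1 or more. The motif share (31.9%) was 9.33% for GGACT and 52.5% for GGAC in 200 bases.

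No paired analysis was possible because each group has 1 library. There was likewise no replicate to leave out. The depth of the libraries is unknown, and whether sites absent from the WT list lay below its detection was not tested.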
